A study of Mus musculus with 8 samples.

Results

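The 10 mouse genes described here make prostaglandins from membrane lipid or carry their receptors: Pla2g4a, Ptgs1, Ptgs2, Ptges, Ptgis, Ptgds, Tbxas1, Ptger2, Ptger4 and Ptgir. They were taken by symbol from a count table of 48587 gene symbols, and all 10 were present and passed the filter on low counts, which 16194 genes passed. RNA came from the whole aortic tree, in 8 poly-A libraries that fall into 4 groups of 2. Tet2KO VitD and Tet2KO vehicle libraries came from mice labelled with a Tet2 deletion restricted to vascular smooth muscle cells, given VitD or vehicle, and WT VitD and WT vehicle libraries from litter controls given the same. The labels name no Cre driver, deleted exon, dose, duration or age, and no source states that a group's libraries are separate mice rather than repeats or pools. P-values therefore rest on the variation among libraries, which could be technical only.

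As background, prostaglandins are short-lived lipid signals that act near the cell that makes them. A phospholipase A2 frees arachidonic acid from the membrane, a cyclooxygenase turns it into the unstable prostaglandin H2, and a terminal synthase turns that into prostaglandin E2, prostaglandin I2 (prostacyclin), prostaglandin D2 or thromboxane A2. In arteries, prostacyclin relaxes smooth muscle and restrains platelets, and thromboxane, made chiefly by platelets and macrophages, does the opposite. The constitutive cyclooxygenase is encoded by Ptgs1, and the cyclooxygenase that inflammatory signals induce is encoded by Ptgs2.

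The promoter stretches of Ptgs2, Tbxas1 and Ptger4 are shown because these are the 3 genes that were higher with VitD in WT, and that of Ptgs1 because it encodes the paralogous enzyme of Ptgs2. Each is the 250 bases before a RefSeq transcription start, written 5′ to 3′ on the gene's strand (RefSeq, GRCm38.p6, the assembly named mm10). They lie at chr1:150099781-150100030 (plus strand) for Ptgs2, chr6:38918736-38918985 (plus) for Tbxas1, chr15:5244188-5244437 (minus) for Ptger4 and chr2:36230176-36230425 (plus) for Ptgs1. The Tbxas1 start is a RefSeq start inside the GENCODE span of the gene. Capitals mark matches of 2 of the motifs searched, the C/EBP palindrome TTGCGCAA in Ptgs2 and TATAAA, which matches on both strands with overlap, in Tbxas1.
Ptgs2: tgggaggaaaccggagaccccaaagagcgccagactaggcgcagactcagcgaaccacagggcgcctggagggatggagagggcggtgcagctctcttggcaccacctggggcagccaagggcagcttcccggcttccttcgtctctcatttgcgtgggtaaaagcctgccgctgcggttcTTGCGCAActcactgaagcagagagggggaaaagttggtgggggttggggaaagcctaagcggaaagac
Tbxas1: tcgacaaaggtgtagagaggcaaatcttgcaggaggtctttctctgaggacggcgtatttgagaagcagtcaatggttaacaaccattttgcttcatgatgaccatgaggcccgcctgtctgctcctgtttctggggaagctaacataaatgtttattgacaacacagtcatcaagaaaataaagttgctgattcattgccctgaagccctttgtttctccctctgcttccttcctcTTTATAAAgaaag
Ptger4: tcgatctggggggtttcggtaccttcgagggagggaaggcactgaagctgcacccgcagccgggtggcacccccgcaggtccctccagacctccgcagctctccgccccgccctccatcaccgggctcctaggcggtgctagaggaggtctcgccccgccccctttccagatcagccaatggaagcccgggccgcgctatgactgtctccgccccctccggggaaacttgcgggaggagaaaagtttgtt
Ptgs1: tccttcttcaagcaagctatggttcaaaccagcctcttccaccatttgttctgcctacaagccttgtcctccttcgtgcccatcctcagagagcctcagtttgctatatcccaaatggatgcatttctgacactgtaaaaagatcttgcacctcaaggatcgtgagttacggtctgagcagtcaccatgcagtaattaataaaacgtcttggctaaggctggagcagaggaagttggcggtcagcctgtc
A short stretch just after the Ptgs2 start, at chr1:150100039-150100060, holds an E-box, CACGTG, in capitals.
Ptgs2 E-box: cactacgtCACGTGgagtccgc

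Of the 10 genes, 9 had a promoter window in the RefSeq table (250 bases before to 50 after the start), and Ptgis had none. The motifs searched numbered 6, on both strands, over all 32851 windows. TTGCGCAA, bound by C/EBP factors, was found in 60 windows (0.183%), and among the 9 genes only in Ptgs2, from -69 to -62 relative to the start. The E-box CACGTG was found in 7.15% of windows and, among the 9, only in Ptgs2, from 17 to 22 bases after the start. TATAAA was found in 13.6% of windows, among them Tbxas1, from -13 to -6, and 1 of the 2 windows of Pla2g4a, from -200 to -195. The cAMP response element TGACGTCA (1.79% of windows), the NF-kB motif (1.63%) and the spaced hexamer repeat bound by the vitamin D receptor (0.00609%) had no match in these 9 genes, which says only that these letters are not in these windows.

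Libraries held 15679274 to 22332149 counts. Levels are given as CPM, TMM-normalised counts scaled to a common library size (the usual CPM), and a call means an adjusted p under 0.05 over all 16194 genes in edgeR's quasi-likelihood test. The smooth muscle genes Myh11 and Acta2 were among the markers detected in every library, and summed CPM of 10 smooth muscle markers was 22100 and 31200 in Tet2KO VitD, 34400 and 32100 in Tet2KO vehicle, 24200 and 16400 in WT VitD, and 33800 and 33700 in WT vehicle. Tet2 itself had 26.6 and 37.6 CPM in Tet2KO VitD, 42.0 and 35.2 in Tet2KO vehicle, 18.3 and 20.0 in WT VitD, and 35.8 and 32.2 in WT vehicle. Tet2 was thus not lower in the libraries labelled knockout under either treatment. Since the deleted part is not named and other aortic cells keep the gene, this count does not check the label, and Tet2KO below means the label. The library numbers fall into 2 ranges that go with treatment: both WT VitD libraries and Tet2KO VitD library 1 have numbers in a higher range, and the other 5 in a lower range. Ribosomal protein genes took 4.45%, 4.92% and 5.0% of counts in the higher range and 1.96% to 2.39% in the lower. In WT, number range and treatment cannot be told apart, and in Tet2KO, VitD library 2 shares the range of its vehicle libraries.

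Per kilobase of exon, the prostacyclin synthase gene Ptgis was by far the most abundant of the 10. It averaged 249 CPM per kilobase over the 8 libraries (range 202 to 294), above 99.1% of the 15702 tested genes with a length. Ptgs2 came next at a mean of 16.5, with libraries from 2.33 to 34.9. It averaged 29.7 in Tet2KO VitD, 4.92 in Tet2KO vehicle, 28.9 in WT VitD and 2.55 in WT vehicle, so in both vehicle groups it was below Pla2g4a and Ptgs1, and in WT vehicle also below Ptges (3.61). Pla2g4a averaged 12.6 (9.03 to 15.7) and Ptgs1 9.13 (6.1 to 13.0), so the ranges of these 2 neighbours overlapped each other and that of Ptgs2. Ptges averaged 3.92, near the median of 4.25 for all tested genes. The receptors followed, Ptger4 at 2.55 (1.22 to 4.01) and Ptgir at 1.76 (1.17 to 2.26), then Tbxas1 at 1.12 (0.403 to 2.02). Ptgds, at 0.506 (0.113 to 1.3), and Ptger2, at 0.184 (0.0838 to 0.392), were the least abundant. Ranges of neighbours in this order overlapped at every step except between Ptgis and Ptgs2 and between Ptgs1 and Ptges (2.26 to 5.77). Lengths are unions of all annotated exons in GENCODE M21, which understates the level of genes with long, little used exons, and Tbxas1 has the longest union, 9.09 kilobases.

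**Figure D1:**
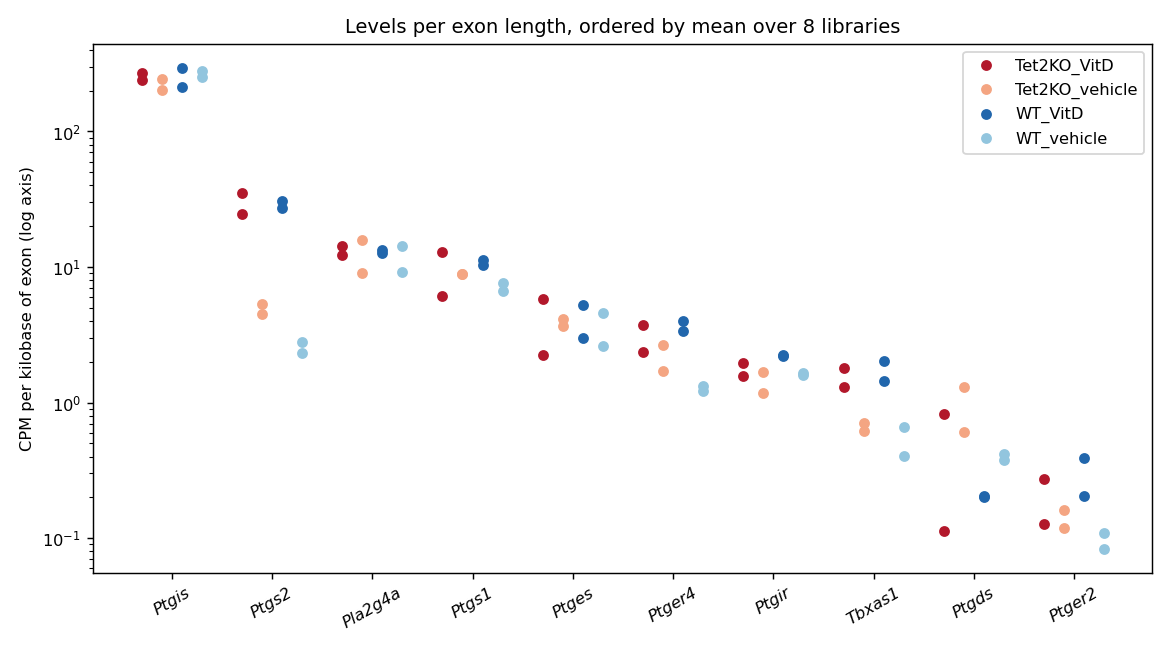
CPM per kilobase of exon (log axis) of the 10 genes, ordered by their mean over the 8 libraries; each point is a library and colours give the groups. Ptgis stands at 202 to 294 in every library, and Ptgs2 splits into VitD and vehicle libraries.

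Between VitD and vehicle in WT, 3 of the 10 genes were called, all higher with VitD: Ptgs2, Tbxas1 and Ptger4. Treatment and number range cannot be told apart there. Of all tested genes, 20.1% were called in this comparison and 10.6% were called higher. In Tet2KO, 1 of the 10 was called, Ptgs2, again higher, against 0.198% of all tested genes and 0.179% called higher. Averaged over both genotypes, the same 3 genes as in WT were called higher, against 25.5% of all tested genes called and 13.9% called higher. The median log2 fold change of the 10 genes was 0.25 in Tet2KO, 0.53 in WT and 0.37 for the mean, against -0.01, -0.03 and -0.03 for all tested genes. The 10 were named with earlier results of these data known, so these counts are a description.

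**Figure D2:**
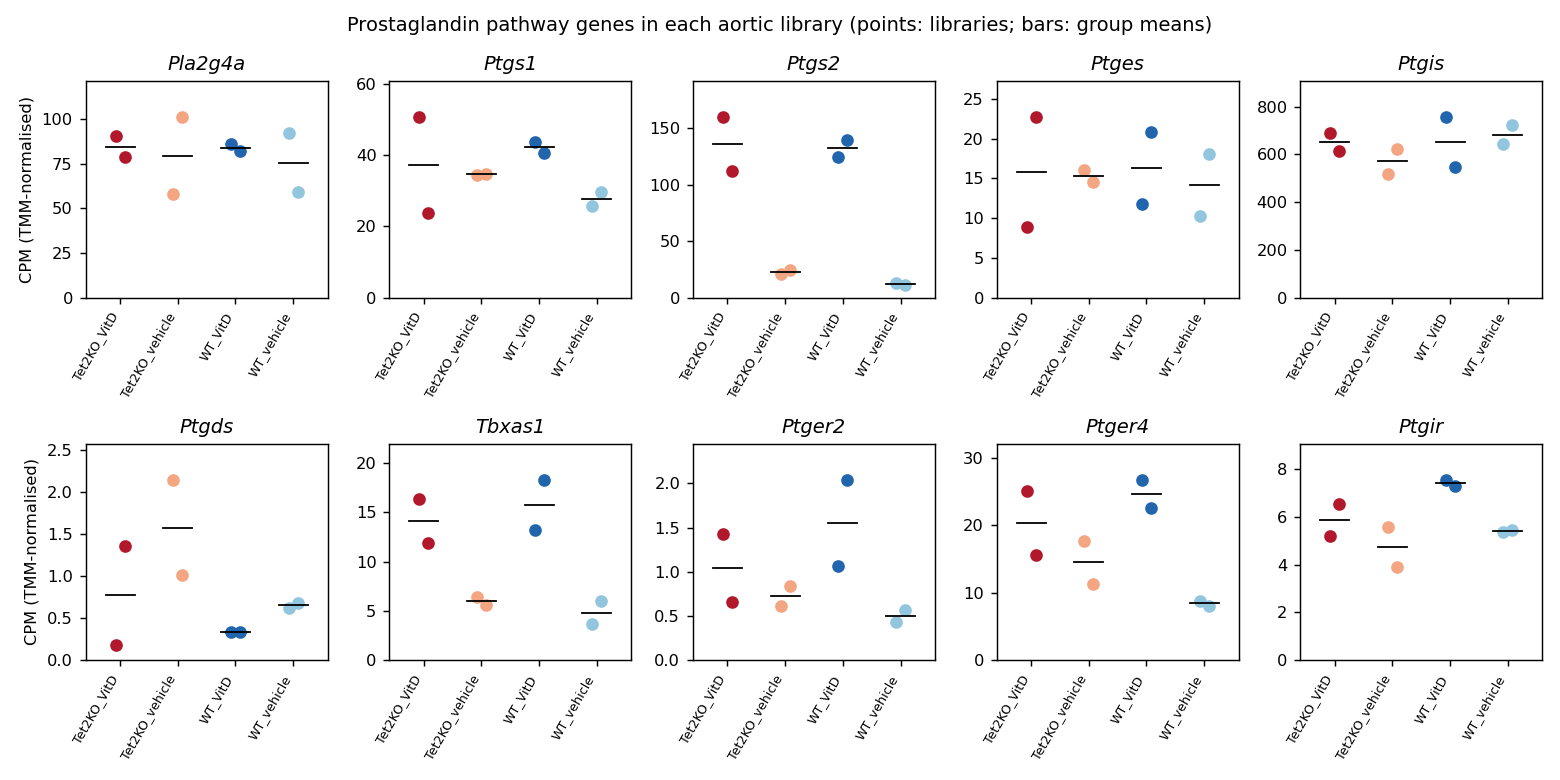
CPM of each of the 10 genes in each library, with points for libraries and bars for group means, on linear axes that start at 0. Ptgs2 stands at 112 to 160 CPM in the 4 VitD libraries and 10.7 to 24.5 CPM in the 4 vehicle libraries, while Ptgis and Pla2g4a overlap between treatments.

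At the first step, Pla2g4a, the cytosolic phospholipase A2 that prefers arachidonic acid (chr1:149829618-149961290, minus strand), had 90.6 and 78.5 CPM in Tet2KO VitD, 57.7 and 101 in Tet2KO vehicle, 85.8 and 81.9 in WT VitD, and 91.9 and 58.9 in WT vehicle. The vehicle libraries spread more widely than the VitD libraries, which lay between them. The log2 fold change was 0.09 in Tet2KO (95% interval -0.56 to 0.75) and 0.15 in WT (-0.50 to 0.81), and neither was called.

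Ptgs2 was the most changed of the 10. This gene (chr1:150100031-150108227, plus strand), whose promoter carries the palindrome shown above, had 160 and 112 CPM in Tet2KO VitD, 20.6 and 24.5 in Tet2KO vehicle, 125 and 140 in WT VitD, and 12.7 and 10.7 in WT vehicle. Every VitD library was above every vehicle library, as was so for 12.6% of all tested genes. Its level was 11.3-fold higher with VitD in WT (log2 3.50, SE 0.236, edgeR adjusted p = 0.000728) and 6.03-fold higher in Tet2KO (log2 2.59, SE 0.225, edgeR adjusted p = 0.00405). Averaged over both genotypes it was 8.26-fold higher (log2 3.05, SE 0.163, edgeR adjusted p = 9.45e-05). With the number range as a covariate, Ptgs2 stayed called, at log2 2.32 in Tet2KO (edgeR adjusted p = 0.00591) and 2.99 in WT (edgeR adjusted p = 0.0102). The covariate rests on Tet2KO VitD library 1 against library 2. The WT value assumes that the same difference holds in WT, which could not be tested because treatment and number range coincide there. Within the lower range alone, Tet2KO VitD library 2 is the only VitD library, and the Tet2KO value was 2.32. That fit and the covariate fit both compare this library with the Tet2KO vehicle libraries, so they are not separate checks. The Tet2KO call was lost without Tet2KO vehicle library 1 (log2 2.48, edgeR adjusted p = 0.0886), without library 2 (2.72, 0.113) and with the 2 Tet2KO groups fitted alone (2.59, 0.0859).

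Ptgs1 (chr2:36230426-36252272, plus strand) was not called in either genotype. It had 50.7 and 23.7 CPM in Tet2KO VitD, 34.4 and 34.8 in Tet2KO vehicle, 43.8 and 40.6 in WT VitD, and 25.8 and 29.8 in WT vehicle. The Tet2KO VitD libraries lay on either side of the vehicle libraries, with the higher value in the library of the higher number range. Both WT VitD libraries were above both WT vehicle libraries, as was so for 33.8% of all tested genes. The log2 fold change was 0.10 in Tet2KO (SE 0.304, edgeR adjusted p = 0.895) and 0.60 in WT (SE 0.306, edgeR adjusted p = 0.182). The WT value passed the threshold with no filter (edgeR adjusted p = 0.0474), with the WT groups fitted alone (0.0354), and without Tet2KO VitD library 1 (0.0192) or 2 (0.0203), and it turned to -0.50 with the number range as a covariate (edgeR adjusted p = 0.587).

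Per exon length, the order of the cyclooxygenase genes differed by treatment. The ratio of Ptgs2 to Ptgs1 was 2.67 and 4.02 in Tet2KO VitD, 0.508 and 0.596 in Tet2KO vehicle, 2.42 and 2.92 in WT VitD, and 0.419 and 0.303 in WT vehicle. Ptgs2 exceeded Ptgs1 in all 4 VitD libraries and was below it in all 4 vehicle libraries.

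Among the terminal synthases, only Tbxas1 was called. Tbxas1, thromboxane A synthase (chr6:38875404-39084585, plus strand), had 16.4 and 11.9 CPM in Tet2KO VitD, 6.38 and 5.58 in Tet2KO vehicle, 13.2 and 18.3 in WT VitD, and 3.67 and 5.98 in WT vehicle. All 4 VitD libraries were above all 4 vehicle libraries, as was so for 12.6% of all tested genes. It was 3.26-fold higher in WT (log2 1.70, SE 0.323, edgeR adjusted p = 0.0139) and 2.77-fold higher over both genotypes (edgeR adjusted p = 0.00484), while Tet2KO alone gave log2 1.24 (SE 0.318, edgeR adjusted p = 0.179). The WT call was lost with the number range as a covariate (log2 1.24, edgeR adjusted p = 0.468), without WT vehicle library 1 (1.40, 0.084) and without WT VitD library 2 (1.45, 0.129), and the call over both genotypes was lost with the covariate (1.11, 0.32). The Tet2KO value passed under DESeq2 (adjusted p = 0.0294), with no filter (edgeR adjusted p = 0.00493) and without Tet2KO VitD library 2 (edgeR adjusted p = 0.032).

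The annotated span of Tbxas1 overlaps that of Hipk2 on the opposite strand, and whether their exons overlap was not tested. No source used here names the strand setting of the counting, so reads of any shared exon cannot be assigned with certainty. Hipk2, a protein kinase gene, had log2 fold changes of 0.06 in Tet2KO (SE 0.262, edgeR adjusted p = 0.93) and 0.07 in WT (SE 0.264, edgeR adjusted p = 0.856).

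Ptgis, prostacyclin synthase (chr2:167191805-167240604, minus strand), had 690 and 614 CPM in Tet2KO VitD, 519 and 623 in Tet2KO vehicle, 756 and 547 in WT VitD, and 644 and 721 in WT vehicle. The treatments overlapped in both genotypes, with log2 fold changes of 0.19 in Tet2KO (95% interval -0.34 to 0.72) and -0.07 in WT (-0.60 to 0.46). The ratio of Ptgis to Tbxas1 per exon length was 149 and 183 in Tet2KO VitD, 288 and 395 in Tet2KO vehicle, 203 and 106 in WT VitD, and 622 and 427 in WT vehicle. It was thus lower in each VitD library than in any vehicle library, with Tbxas1 the gene of the pair that was called.

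Ptges, the microsomal prostaglandin E synthase that often works with cyclooxygenase 2 (chr2:30889471-30929863, minus strand), had 8.88 and 22.7 CPM in Tet2KO VitD, 16.1 and 14.5 in Tet2KO vehicle, 11.8 and 20.8 in WT VitD, and 10.3 and 18.1 in WT vehicle. The treatments overlapped in both genotypes, and the log2 fold changes were 0.05 in Tet2KO (95% interval -0.98 to 1.08) and 0.20 in WT (-0.83 to 1.24). Ptgds, the lipocalin-type prostaglandin D synthase (chr2:25466709-25470046, minus strand), had counts of only 3 and 31 in Tet2KO VitD, 35 and 18 in Tet2KO vehicle, 5 and 6 in WT VitD, and 10 and 12 in WT vehicle. Its level was 0.186 and 1.36 CPM in Tet2KO VitD, 2.15 and 1.01 in Tet2KO vehicle, 0.331 and 0.34 in WT VitD, and 0.622 and 0.684 in WT vehicle. Its log2 fold changes of -0.97 in Tet2KO and -0.95 in WT had intervals of -2.74 to 0.81 and -2.99 to 1.10, and neither was called. The Tet2KO VitD libraries alone spread from 3 to 31 counts, and without library 2 of that group the value over both genotypes was called lower (log2 -1.98, edgeR adjusted p = 0.0266).

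Of the receptors, Ptger4 was called. Ptger4, the EP4 receptor for prostaglandin E2, which raises cyclic AMP (chr15:5206661-5244187, minus strand), had 25 and 15.6 CPM in Tet2KO VitD, 17.7 and 11.3 in Tet2KO vehicle, 26.7 and 22.5 in WT VitD, and 8.76 and 8.09 in WT vehicle. Both WT VitD libraries were above both WT vehicle libraries, as was so for 33.8% of all tested genes, and the Tet2KO groups overlapped. It was 2.92-fold higher in WT (log2 1.54, SE 0.303, edgeR adjusted p = 0.015) and 2.02-fold higher over both genotypes (edgeR adjusted p = 0.0128), while Tet2KO alone gave log2 0.48 (SE 0.294, edgeR adjusted p = 0.483). The WT call was lost when the number range entered as covariate (log2 0.86, edgeR adjusted p = 0.547) and without any 1 of the 4 WT libraries (edgeR adjusted p from 0.0604 to 0.0937), and with the covariate the value over both genotypes was 0.49 (0.635).

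The annotated span of Ptger4 overlaps that of Ttc33 on the opposite strand, with the same limits on exons and on assigning reads. Ttc33, a little studied tetratricopeptide repeat gene, had log2 fold changes of 0.42 in Tet2KO (SE 0.252, edgeR adjusted p = 0.481) and 0.49 in WT (SE 0.252, edgeR adjusted p = 0.183).

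Ptger2, the EP2 receptor for the same ligand (chr14:44988195-45003820, plus strand), had 1.43 and 0.66 CPM in Tet2KO VitD, 0.614 and 0.838 in Tet2KO vehicle, 1.06 and 2.04 in WT VitD, and 0.435 and 0.57 in WT vehicle, from 7 to 36 counts a library. Its WT log2 fold change was 1.61 (SE 0.631, edgeR adjusted p = 0.0982) and that of Tet2KO 0.50 (SE 0.617, edgeR adjusted p = 0.722). Ptgir, the prostacyclin receptor (chr7:16906490-16910905, plus strand), had 5.22 and 6.55 CPM in Tet2KO VitD, 5.58 and 3.91 in Tet2KO vehicle, 7.55 and 7.3 in WT VitD, and 5.35 and 5.47 in WT vehicle. Its log2 fold changes were 0.31 in Tet2KO (95% interval -0.35 to 0.98) and 0.46 in WT (-0.21 to 1.12), neither called. Per exon length, Ptger4 exceeded Ptgir 2.41-fold and 1.19-fold in Tet2KO VitD, 1.59-fold and 1.45-fold in Tet2KO vehicle and 1.77-fold and 1.55-fold in WT VitD. In WT vehicle the ratio was 0.822 and 0.742, so the prostacyclin receptor was the more abundant of the pair in that group alone.

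**Figure D3:**
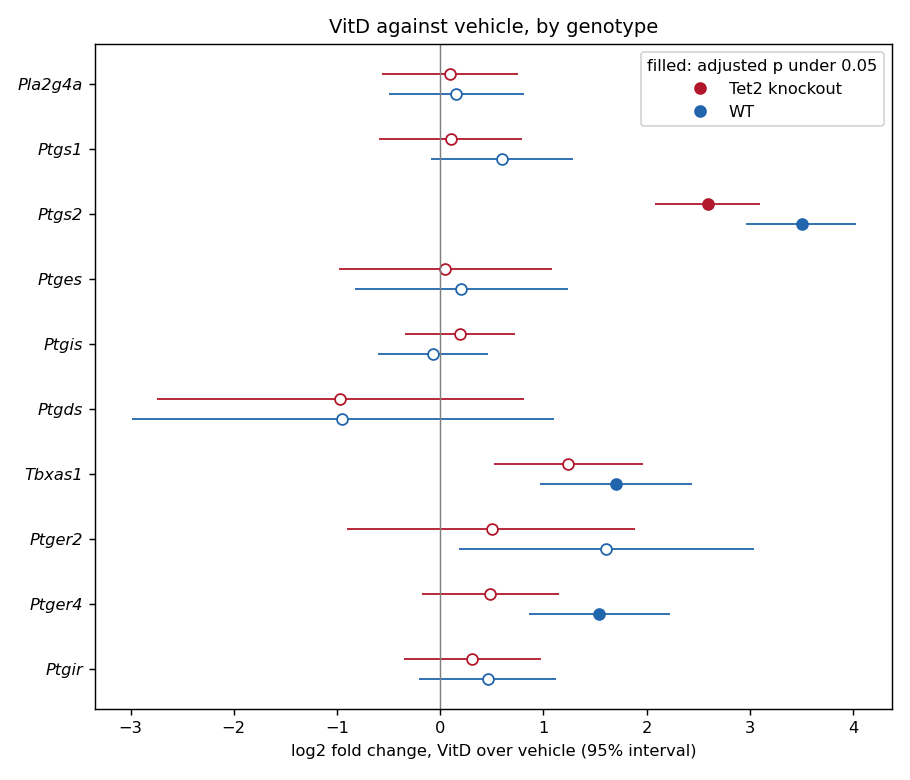
Log2 fold change of VitD over vehicle for the 10 genes with 95% intervals, in Tet2KO (red) and WT (blue) libraries; filled points have an edgeR adjusted p under 0.05. Ptgs2 lies at 2.59 in Tet2KO and 3.50 in WT, and the intervals of Pla2g4a, Ptges, Ptgis and Ptgir span 0 in both.

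Markers of some cell types also differed between VitD and vehicle, mostly in WT, where 10.6% of all tested genes were called higher and 9.47% lower. In bulk tissue, fewer cells of a type and less RNA per cell cannot be told apart. Summed CPM of 12 macrophage markers was 2920 and 1670 in Tet2KO VitD, 842 and 1030 in Tet2KO vehicle, 2840 and 3390 in WT VitD, and 649 and 675 in WT vehicle. All 12 were called higher with VitD in WT and over both genotypes, and 1 of 12 in Tet2KO. Summed CPM of 8 platelet and megakaryocyte markers was 88.5 and 44.6 in Tet2KO VitD, 40 and 36.5 in Tet2KO vehicle, 72.6 and 78.7 in WT VitD, and 30.1 and 36.4 in WT vehicle, with 3 of 7 tested called higher in WT. Endothelial markers summed to 4880 and 1490 CPM in Tet2KO VitD, 1960 and 2130 in Tet2KO vehicle, 3180 and 2760 in WT VitD, and 1720 and 1630 in WT vehicle, with 2 of 10 called higher in WT. Neutrophil markers summed to 36.3 and 20.5 CPM in Tet2KO VitD, 15.5 and 9.77 in Tet2KO vehicle, 47.1 and 89.4 in WT VitD, and 9.94 and 4.27 in WT vehicle, with 6 of 8 tested called higher in WT. Smooth muscle markers moved the other way, with 4 of 10 called lower in WT and 0 of 10 in Tet2KO.

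None of the listed markers was at 0 in every library. Mesothelial markers summed to 50.8 to 252 CPM (4 of 8 called higher in WT) and skeletal muscle markers to 14.6 to 488 CPM (7 of 8 higher in WT, highest in the WT VitD libraries). Fibroblast markers summed to 8100 to 9740 CPM (2 of 10 higher and 1 lower in WT), adipocyte markers to 988 to 3040 (0 of 8 called), mast cell markers to 69.7 to 125 (2 of 7 tested higher and 1 lower), nerve markers to 245 to 321 (0 of 8) and T cell markers to 3.87 to 107 (2 of 7 tested lower). The T cell sum of 107 was that of WT vehicle library 1, while WT vehicle library 2 had 6.38, below both WT VitD libraries (7.88 and 7.42). The part of these cell types in the values of Ptgs2, Tbxas1 and Ptger4 was not tested.

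**Figure D4:**
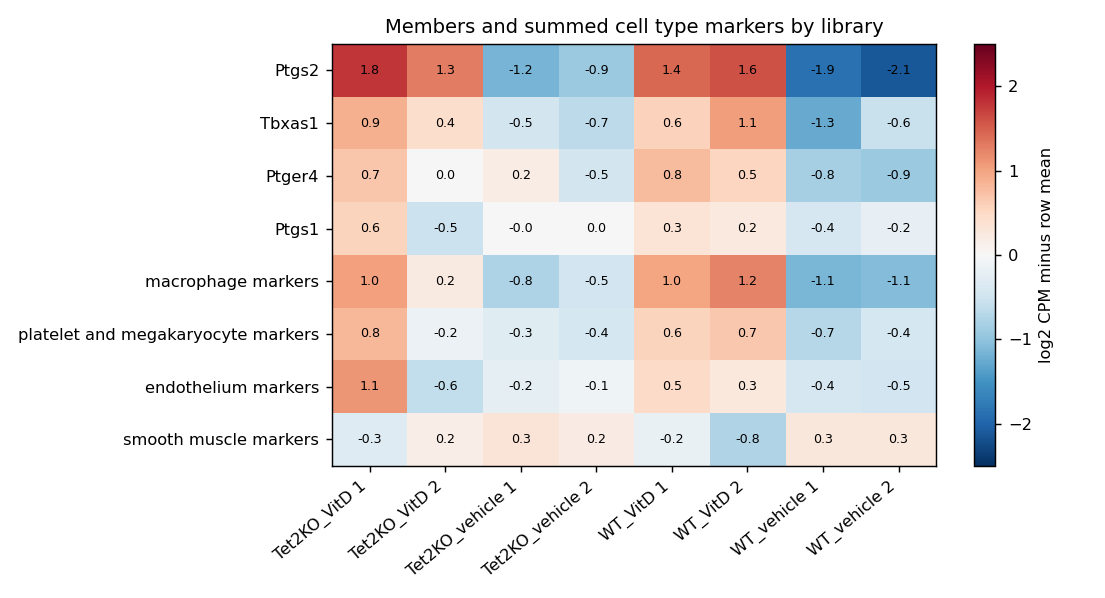
Log2 CPM minus the row mean for 4 of the genes and for the summed markers of 4 cell types, in each library, on a colour scale from blue (below the mean) to red (above). Ptgs2, Tbxas1 and the macrophage markers are above their means in all 4 VitD libraries and below them in all 4 vehicle libraries.

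The genotypes were then compared under each treatment. Under vehicle, where all 4 libraries share the lower number range, 0 of the 10 genes were called by edgeR, as were 0% of all tested genes. At an unadjusted p under 0.05, 2 of the 10 passed, against 2.97% of all genes. They were Ptgs2, at 20.6 and 24.5 CPM in Tet2KO vehicle against 12.7 and 10.7 in WT vehicle (log2 0.95, SE 0.222, edgeR adjusted p = 1), and Ptger4, at 17.7 and 11.3 CPM in Tet2KO vehicle against 8.76 and 8.09 in WT vehicle (log2 0.78, SE 0.301, edgeR adjusted p = 1). In both genes every Tet2KO library was above every WT library, as was so for 14.3% of all tested genes, and Ptgs2 passed the adjusted threshold only with no filter (log2 0.96, edgeR adjusted p = 0.0173). Macrophage markers were 842 and 1030 CPM in Tet2KO vehicle against 649 and 675 in WT vehicle, with 0 of 12 called, 3 of 12 at an unadjusted p under 0.05, 12 of 12 with a positive log2 fold change and a median of 0.56 against 0 for all tested genes. Of 8 tested neutrophil markers, 1 passed at an unadjusted p under 0.05 and 7 were positive, with a median of 0.81. The part of these markers in the values of Ptgs2 and Ptger4 was not tested.

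Under VitD, edgeR called 0 of the 10 and 0% of all tested genes, with 0 of the 10 passing at an unadjusted p under 0.05 against 10.6% of all genes. Ptgs2 differed by log2 0.04 between Tet2KO VitD and WT VitD (95% interval -0.43 to 0.52), Tbxas1 by -0.16 (-0.86 to 0.54) and Ptger4 by -0.28 (-0.94 to 0.38). The difference between the genotypes in the response to VitD, tested as an interaction, was called for 0 of the 10 and for 0% of all genes. At an unadjusted p under 0.05, 2 of the 10 passed against 6.21% of all genes: Ptgs2 (log2 -0.91, SE 0.305, edgeR adjusted p = 0.794) and Ptger4 (log2 -1.06, SE 0.419, edgeR adjusted p = 0.794), both with the smaller fold in Tet2KO. Of the VitD libraries, only Tet2KO VitD library 2 is in the lower number range. With that range as a covariate, the interaction was -0.67 for Ptgs2 (edgeR adjusted p = 0.862) and -0.76 for Ptger4 (edgeR adjusted p = 0.951). The macrophage markers had smaller folds in Tet2KO as well, with 0 of 12 called, 6 of 12 at an unadjusted p under 0.05, 0 of 12 positive and a median interaction of -0.89 against 0.02 for all tested genes. Of the neutrophil markers 4 of 8 passed at an unadjusted p under 0.05 and 0 of 8 were positive, with a median of -2.59. The part of these markers in the interaction values of Ptgs2 and Ptger4 was not tested. Tbxas1 gave -0.47 (SE 0.447, edgeR adjusted p = 0.893), so a call in WT and none in Tet2KO does not show a different response. DESeq2 and voom likewise called 0 of the 10 in the 2 genotype comparisons and the interaction, where DESeq2 called 18, 96 and 18 of all genes and voom 0, 0 and 0.

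Genes outside the pathway were ranked by closeness of profile to Ptgs2, Ptgir and Ptgis. By root mean square difference between log2 profiles centred over the 8 libraries, among 13187 genes, the closest to Ptgs2 was Ch25h (0.298), which encodes cholesterol 25-hydroxylase, then Mt1 (0.302), a metallothionein, Ms4a6d (0.316), a membrane protein of macrophages, Ctss (0.341), the lysosomal protease cathepsin S, and Tlr13 (0.357), a receptor for bacterial ribosomal RNA in mice. Ch25h had only 0.186 and 0.228 CPM in WT vehicle. Its log2 fold change was 5.18 in WT and 3.0 in Tet2KO, against 3.5 and 2.59 for Ptgs2. Profiles were compared on log2(CPM + 0.5), which shrinks changes from such low levels, so the rank of Ch25h does not mean an equal fold. Mt1, for instance, had 1870 and 811 CPM in Tet2KO VitD, 145 and 190 in Tet2KO vehicle, 818 and 1200 in WT VitD, and 148 and 79.0 in WT vehicle. Closest to Ptgir were Chsy1 (0.0605), Rrbp1 (0.0915) and Nubp1 (0.0956), and closest to Ptgis were Wbp4 (0.0838), Rsph3a (0.0877) and Cyth2 (0.094). These 8 libraries share treatment, number range and cell makeup, so closeness is a description.

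The rest of the pathway was read through lists of neighbouring genes. Of 15 other phospholipases A2, 10 were tested, and in WT 1 was higher and 3 were lower with VitD. Of all tested genes, 9.47% were called lower in WT, 0.0185% in Tet2KO and 11.6% over both genotypes. The shares called higher were 10.6% in WT, 0.179% in Tet2KO and 13.9% over both genotypes, and both sets of shares apply to each list below. Pla2g7, which encodes the platelet-activating factor acetylhydrolase carried by lipoproteins and made by macrophages, had 96.1 and 38.4 CPM in Tet2KO VitD, 19.5 and 24.0 in Tet2KO vehicle, 58.5 and 67.0 in WT VitD, and 11.7 and 13.5 in WT vehicle, and was 4.98-fold higher in WT (log2 2.32, SE 0.380, edgeR adjusted p = 0.00993). Pla2g2d, a secreted phospholipase of lymphoid tissue, was lower in both genotypes, at 0.683 and 0.792 CPM in Tet2KO VitD against 6.32 and 5.42 in Tet2KO vehicle (log2 -2.97, edgeR adjusted p = 0.0325), and at 0.53 and 0.396 in WT VitD against 4.04 and 3.76 in WT vehicle (log2 -3.06, edgeR adjusted p = 0.00519). It was the only listed pathway gene called in Tet2KO, and that call was lost under 10 of the alternatives, the number range covariate among them. Pla2g4b was lower in WT (log2 -2.24, edgeR adjusted p = 0.038) from 4 to 22 counts, while Tet2KO gave 0.40 (edgeR adjusted p = 0.773) and the interaction 2.65 (edgeR adjusted p = 0.794). Pla2g3 had 2 and 0 counts in WT VitD against 23 and 23 in WT vehicle (edgeR adjusted p = 0.0198).

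Among 7 other terminal synthases, 1 was higher in WT. Hpgds, the haematopoietic prostaglandin D synthase, had 8.57 and 10.6 CPM in Tet2KO VitD, 7.67 and 4.86 in Tet2KO vehicle, 10.9 and 12.3 in WT VitD, and 3.92 and 4.39 in WT vehicle, and was 2.79-fold higher in WT (log2 1.48, SE 0.301, edgeR adjusted p = 0.0165). Of 7 other receptors, 5 were tested and 1 was lower in WT. Ptger3, the EP3 receptor, which lowers cyclic AMP, had 3.04 and 12.9 CPM in Tet2KO VitD, 29.2 and 21.6 in Tet2KO vehicle, 4.57 and 5.15 in WT VitD, and 19.9 and 31.9 in WT vehicle. Its WT log2 fold change was -2.41 (SE 0.564, edgeR adjusted p = 0.0234), and Tet2KO gave -1.65 (edgeR adjusted p = 0.267). Of the prostaglandin E2 receptors, then, Ptger4 was called higher and Ptger3 lower with VitD in WT. The others, Ptger1 (log2 -0.78, edgeR adjusted p = 0.41) and Ptger2 (log2 1.61, edgeR adjusted p = 0.0982), were not called in WT. The WT calls of Ptger4 and Ptger3 were both lost once number range was fitted too, and on leaving out any WT library.

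Of 7 genes of prostaglandin uptake and breakdown, 3 were higher in WT. Slco2a1, the prostaglandin transporter, had 203 and 78.0 CPM in Tet2KO VitD, 81.3 and 90.1 in Tet2KO vehicle, 219 and 241 in WT VitD, and 57.1 and 55.0 in WT vehicle, and was 4.10-fold higher in WT (log2 2.04, SE 0.375, edgeR adjusted p = 0.0131). Hpgd, the dehydrogenase that inactivates prostaglandins, was 2.36-fold higher in WT (edgeR adjusted p = 0.0246). In Tet2KO its log2 fold change was -0.24 (SE 0.289, edgeR adjusted p = 0.713), at 15 and 11.6 CPM in Tet2KO VitD against 13.2 and 18.1 in Tet2KO vehicle, and the interaction was -1.48 (edgeR adjusted p = 0.794). Ptgr1, a reductase of the next step, was 1.95-fold higher in WT (edgeR adjusted p = 0.0319). Akr1c18, a reductase, was called lower over both genotypes (log2 -2.42, edgeR adjusted p = 0.0243) from 1 to 23 counts. Among 6 partner genes, Anxa1, whose product annexin A1 restrains phospholipase A2, was 2.15-fold higher in WT (edgeR adjusted p = 0.0304), and Mapkapk2, whose kinase stabilises Ptgs2 mRNA, 1.55-fold higher (edgeR adjusted p = 0.0467).

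The leukotriene branch, which uses the same arachidonic acid, had 5 of 9 tested genes higher and 1 lower in WT, against 10.6% and 9.47% of all tested genes. In Tet2KO 0 of 9 were called. Over both genotypes 6 were higher and 1 lower, against 13.9% and 11.6% of all tested genes. Alox5ap, the protein that presents arachidonic acid to 5-lipoxygenase, had 28.8 and 14 CPM in Tet2KO VitD, 6.01 and 7.71 in Tet2KO vehicle, 26.4 and 34.8 in WT VitD, and 4.23 and 5.24 in WT vehicle. It was 6.46-fold higher in WT (log2 2.69, SE 0.366, edgeR adjusted p = 0.00537), with Alox5 itself 3.24-fold higher, the leukotriene B4 receptor Ltb4r1 6.10-fold, the cysteinyl leukotriene receptor Cysltr1 4.74-fold and the leukotriene C4 synthase Ltc4s 3.71-fold higher. Ltb4r1 had few counts, 6 and 13 in WT vehicle against 46 and 68 in WT VitD. Gpr17, a receptor related to those for cysteinyl leukotrienes, was lower in WT (log2 -2.84, SE 0.529, edgeR adjusted p = 0.0132).

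Of 16 cytokines, receptors and transcription regulators of the pathways that control Ptgs2, inhibitors such as Nfkbia included, 15 were tested. In WT 3 were higher, against 10.6% of all tested genes. In Tet2KO 0 were called, and over both genotypes 4 were higher, against 13.9% of all tested genes. Il1b, the cytokine interleukin 1 beta, had 5.47 and 7.35 CPM in Tet2KO VitD, 3.56 and 1.40 in Tet2KO vehicle, 10.3 and 11.8 in WT VitD, and 0.808 and 0.399 in WT vehicle, and was 18.3-fold higher in WT (log2 4.19, SE 0.540, edgeR adjusted p = 0.00444). Il6 had 43 and 182 counts in Tet2KO VitD, 5 and 3 in Tet2KO vehicle, 110 and 206 in WT VitD, and 0 and 2 in WT vehicle (WT edgeR adjusted p = 0.00432). Cebpd, which encodes a C/EBP factor, had 209 and 125 CPM in Tet2KO VitD, 57.3 and 62.1 in Tet2KO vehicle, 219 and 172 in WT VitD, and 61.6 and 43.5 in WT vehicle, and was 3.72-fold higher in WT (log2 1.89, SE 0.285, edgeR adjusted p = 0.00748). A link between Cebpd and the palindrome in the Ptgs2 promoter was not tested. Nfkb2, an NF-kB subunit, was called over both genotypes (1.32-fold, edgeR adjusted p = 0.0448). Across all these lists edgeR called 0 genes in the genotype comparisons and the interaction. Of the 20 pathway genes called in WT, 1 (Il6) was still called with the range covariate, and 4 were without WT vehicle library 1 or WT VitD library 2.

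**Figure D5:**
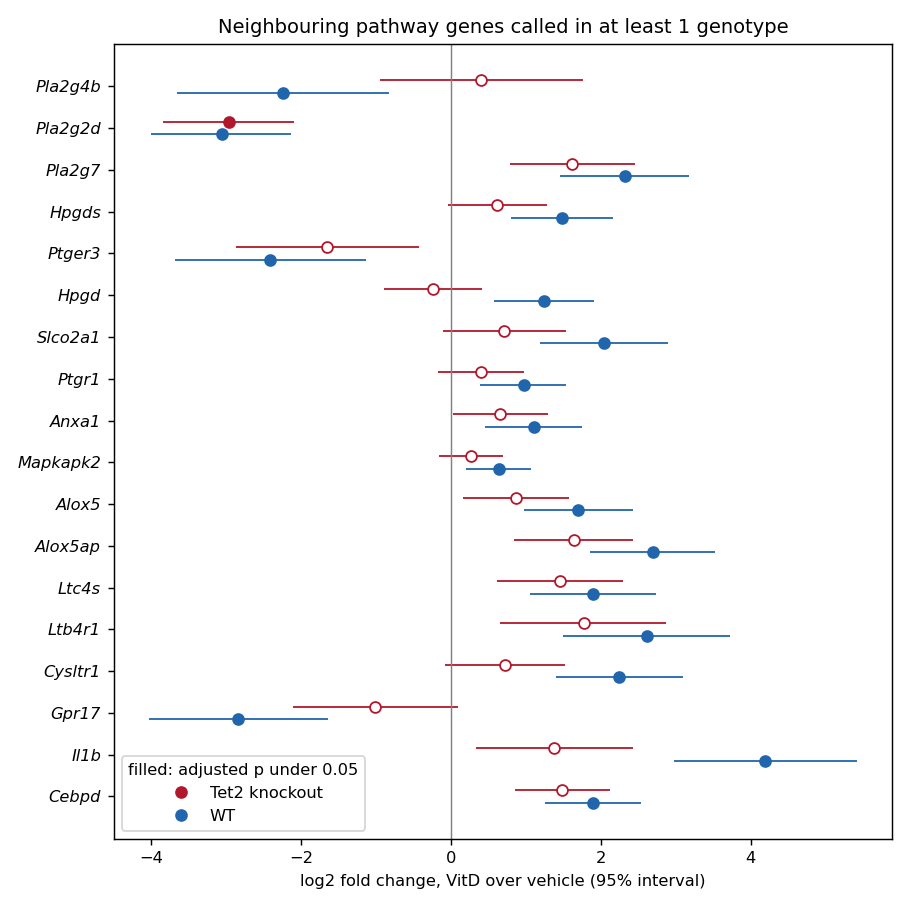
Log2 fold change of VitD over vehicle, with 95% intervals, for neighbouring pathway genes called in at least 1 genotype, in Tet2KO (red) and WT (blue); filled points have an edgeR adjusted p under 0.05. Il6 and Pla2g3 are not drawn because a WT group has 2 or fewer counts a library; Pla2g2d is the gene filled in both genotypes.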

How the data were processed

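The authors deposited raw counts per gene symbol for 8 libraries. Trimmomatic 0.39, STAR 2.7.8a, featureCounts 2.0.2 and mm10 are named per the submitters' processing notes; the kit is stranded per the labels' protocols, and no source used here names the annotation release, the strand setting or how multi-mapped reads were handled. Counts were fitted in edgeR 4.0.16 (limma 3.58.1, R 4.3.3): TMM, filterByExpr, 1 mean per group over all 8 libraries (4 residual degrees of freedom), glmQLFit and glmQLFTest, Benjamini-Hochberg over 16194 genes for each of 6 contrasts. SE is the log2 fold change divided by the square root of F. Script behaviour was checked on simulated counts. Alternatives were DESeq2 1.42.0, voom with quality weights, other size factors and filters, a replicate block, the library number range, fewer groups, each library left out, and, added after seeing the data, removal of a trend with exon length. Levels per kilobase use GENCODE M21 (mm10), where 46384 of 48587 symbols (95.5%) matched 1 gene. Groups and replicate numbers come from the sample titles.

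Named genes were all 10 members, of each pathway list the genes called (up to 5 by p for each contrast), the genes closest in profile to Ptgs2 (5), Ptgir (3) and Ptgis (3) among genes of at least 1 CPM on log2(CPM + 0.5), and Tet2, Myh11 and Acta2. The members and lists were chosen with earlier results of these data known.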

Additional observations from a re-analysis of the deposited data

How the results depend on the processing

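The 10 genes gave 1079 values under alternatives, of which 1055 kept direction and side of the threshold, 13 lost a call, 11 gained one and 0 called values changed sign; 79 values uncalled in both settings changed sign and are counted as kept. In WT, 3 members were called, 1 with the number range covariate, and 1 to 4 with a library left out, the lowest without WT vehicle library 1 or WT VitD library 2 and the highest without either Tet2KO VitD library. In Tet2KO, 1 was called, 2 under DESeq2, 2 with no filter, 0 with only the groups compared, and 0 to 2 with a library left out, the lowest without either Tet2KO vehicle library. Over both genotypes, 3 were called, 1 with the covariate, and 3 to 6 with a library left out; the 6 came without Tet2KO VitD library 2, adding Ptgs1 (log2 0.58, edgeR adjusted p = 0.00656), Ptger2 (1.29, 0.0492) and, lower, Ptgds (-1.98, 0.0266). Tet2KO against WT under vehicle went to 1 with no filter. Alox15, named for this alone, turned to -0.40 over both genotypes with the covariate, against 2.58. The cause of these shifts was not tested, except that leaving out a library or group leaves fewer residual degrees of freedom. Over all genes, 32 were called in Tet2KO, against 461 under DESeq2, 8 under voom, 1225 with no filter, 20 with the covariate, 16 in the lower range, 2 with only the groups compared, 17 with the length trend removed, and 0 to 1898 with a library left out. In WT, 3251 became 58 with the covariate and 140 to 4946 with a library left out, and over both genotypes 4132 became 114 and 902 to 6448. The 0 genes of Tet2KO against WT under vehicle, under VitD and of the interaction became 164, 610 and 403 with no filter, and 16 and 7 of the last pair with the covariate; with a library left out they were 0, 0 to 674 and 0 to 37, the highest without Tet2KO VitD library 1 (16 and 13 without library 2, and 8 and 3 under VitD without WT VitD library 1 and library 2). The covariate rests on Tet2KO VitD library 1 against library 2. Replicate numbers did not pair the libraries (correlations of same-numbered deviations from -0.161 to 0.157), and a replicate block changed no member's call (3 in WT, 1 in Tet2KO, 3 over both, 0 in the others); it lost Pla2g4b and Mapkapk2 in WT, Pla2g2d in Tet2KO, and Mapkapk2 and Nfkb2 over both. The lower range alone allows 2 of the 6 contrasts, and fitting only the groups compared is the same fit for the mean and the interaction. Ptgds and Ptger2 had the fewest counts, at 3 to 36 counts a library.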
